A study of Homo sapiens with 8 samples.

Results

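The replication histone genes supply the core histones H2A, H2B, H3 and H4 and the linker histone H1 that package newly copied DNA. Here they are the rows of the expression table whose symbol starts with HIST1H, HIST2H, HIST3H or HIST4H, the names of the histone gene clusters. That rule, which uses no measured value, found 71 of the 19411 genes in the table. Of these, 27 had a level of 0.5 RPKM or more in at least 2 of the 8 libraries and are described 1 by 1. RPKM is the number of reads per kilobase of exon, scaled to the size of the library, and so is a level per length. The other 44 stayed under that level.

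By the sample labels, the libraries were poly(A) RNA of HCT116, an established human colorectal carcinoma cell line with CRISPR interference, in which a guide RNA directs a cutting-dead Cas9 joined to a repressor to the start of a gene and lowers its transcription. The 8 libraries form 4 groups of 2. The lines named circPRE8 and circPRE2 and the parental line each received the guide against the long noncoding RNA NORAD (circPRE8 sgNORAD, circPRE2 sgNORAD and parental sgNORAD), and the parental line with the control guide was parental sgControl. The labels do not say what circPRE8 and circPRE2 carry, so the names are used only as names. All 4 groups share the CRISPR interference background, and the labels do not say whether a line is 1 clone or whether the 2 libraries of a group came from separate cultures, so p-values measure the spread between those libraries. The series' overall design text tells of 3 replicates and a small RNA library kit, which does not match the samples' own labels; the labels were followed, and every reading of oligo-dT selection below rests on them. NORAD itself was not analysed here, and how far its guide lowered it is therefore unknown. In bulk RNA, fewer cells of a kind (such as cells in S phase) and less RNA per cell cannot be told apart.

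Most messenger RNAs end in a poly(A) tail, but those of the replication histone genes normally end just after a short stem-loop and carry no tail. The stem-loop is bound by SLBP, the stem-loop-binding protein, which guides the processing, translation and timed decay of these messages, and their level climbs when DNA is copied and drops afterwards. Some of the genes are also known to make longer, polyadenylated messages, among them HIST1H1C, HIST1H2AC, HIST1H2BD, HIST1H2BK and HIST2H2BE. Oligo-dT selection keeps tailed RNA, so the values below describe whatever tailed or carried-over histone RNA these cells held and not the whole histone message pool.

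The annotated transcripts show both kinds of end, and a few are printed because oligo-dT selection acts on this end of the RNA. In the stem-loop sequences the capitals mark the stem and loop. In the transcript ends the capitals mark a poly(A) signal, AATAAA or ATTAAA, within the last 40 bases and after any stem-loop, read 5′ to 3′ from GENCODE release 29 transcripts (hg38).
HIST3H2A stem-loop: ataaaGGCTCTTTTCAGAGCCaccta
HIST3H2A annotated end: tctgatATTAAAagtatttatgatctctaa
HIST2H2BE stem-loop: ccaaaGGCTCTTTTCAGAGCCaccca
HIST2H2BE annotated end: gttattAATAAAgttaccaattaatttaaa
HIST1H2AC stem-loop: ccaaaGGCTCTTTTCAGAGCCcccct
HIST1H2AC annotated end: agcctggcatgaggtAATAAAaggtaatgc
HIST1H3E stem-loop: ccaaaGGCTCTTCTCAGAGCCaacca
HIST1H3E annotated end: agatgtaaAATAAAagattactgaacagaa
HIST1H4I stem-loop: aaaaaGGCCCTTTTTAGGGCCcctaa
The stem-loop consensus was present in 46% of the 100 annotated transcripts of the members, against 0.103% of 206694 transcripts of all genes. A poly(A) signal at the end was in 29% of the members' transcripts, against 30.2% of all transcripts. A match describes the letters and shows no use of the site.

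By annotated end, 22 of the 71 genes had a transcript with a poly(A) signal, 11 had a stem-loop and no such signal, 5 had neither, and 33 were annotated as their coding part alone. For that last class, which includes HIST1H1C and HIST1H2BK, reads that fall past the stop codon were not counted. The 0.5 RPKM level was reached by 9 of the 22 genes with a signal, 3 of the 11 with a stem-loop alone, 2 of the 5 with neither and 13 of the 33 with the coding part alone.

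The 3 most abundant members were HIST1H2BK, HIST1H1C and HIST3H2A, and the 150 bases before their RefSeq start sites (GRCh38.p14) are printed because these genes carried most of the histone signal. Capitals mark the motifs searched on both strands in the 250 bases before the start: CCAAT (reverse strand ATTGG), the TATA box TATAAA, the octamer ATTTGCAT (reverse strand ATGCAAAT) and the H1 box AAACACAA.
HIST1H2BK promoter, chr6:27146859-27147008, minus strand: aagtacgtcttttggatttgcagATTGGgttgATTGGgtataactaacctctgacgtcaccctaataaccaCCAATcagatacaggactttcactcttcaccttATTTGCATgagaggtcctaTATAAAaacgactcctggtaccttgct
HIST1H1C promoter, chr6:26056471-26056620, minus strand: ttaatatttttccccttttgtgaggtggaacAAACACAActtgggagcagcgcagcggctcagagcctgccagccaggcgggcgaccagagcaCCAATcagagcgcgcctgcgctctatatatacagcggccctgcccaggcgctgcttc
HIST3H2A promoter, chr1:228457874-228458023, minus strand: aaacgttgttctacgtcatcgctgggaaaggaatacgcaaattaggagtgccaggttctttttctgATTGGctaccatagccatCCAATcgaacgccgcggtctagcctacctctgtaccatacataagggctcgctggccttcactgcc
RefSeq gave a promoter for 66 of the 71 members. CCAAT was found in 84.8% of them, against 32.0% of all 35116 RefSeq promoters, and TATAAA in 66.7%, against 10.7%. The octamer was found in 39.4% of the members' promoters, against 1.63% of all, and it stood in 11 of 16 H2A and 14 of 18 H2B promoters, 1 of 13 H3 promoters and none of the 6 H1 and 13 H4 promoters. The 1 H3 promoter with the octamer, that of HIST1H3D, is the same stretch as the promoter given for HIST1H2AD (chr6:26199294-26199443). Windows of neighbouring genes can also overlap, as for HIST1H2AC and HIST1H2BC, so 1 octamer can count for more than 1 gene. The H1 box was found in 4 of the 6 H1 promoters and in no promoter of a core histone, against 1.28% of all promoters. Every H1, H2A, H2B and H3 promoter held CCAAT, while 3 of the 13 H4 promoters did. These are descriptions of letters in a window and say nothing about binding.

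Scaling sizes recovered from the RPKM steps lay between 28.4 M reads (parental sgNORAD replicate 1) and 50.3 M reads, where M stands for mega, so 1 read on a 1 kb gene stood for 0.0199 to 0.0352 RPKM. Members took 0.0327% to 0.0571% of the summed RPKM of a library. Mitochondrial genes took 4.01% of the summed RPKM in parental sgNORAD replicate 1, against 6.45% to 8.69% in the 7 other libraries, and its part in the results as a whole was not tested. The epithelial markers EPCAM, KRT8, KRT18 and KRT19 were at 73.2 RPKM or more in every library and CDX2 at 4.05 to 4.64 RPKM. Some markers moved with the circPRE8 line, and part of this was seen in circPRE2 sgNORAD as well. In circPRE2 sgNORAD against parental sgControl, 4 of the 6 tested epithelial markers were lower and 0 higher, beside 17.8% and 25.2% of all genes. Among them were CDH1 and EPCAM, with log2 differences of -0.24 and -0.27 (limma adjusted p = 0.00521 and 0.000123). CDH1 was 5.98 ± 0.28 RPKM in circPRE8 sgNORAD and 11.98 ± 0.065 in parental sgControl (limma adjusted p = 2.77e-07), and EPCAM was 73.5 ± 0.41 and 112 ± 3.3 RPKM in the same groups (limma adjusted p = 2.96e-07; SD, n = 2 libraries each), while KRT8, KRT18 and KRT19 were higher in circPRE8 sgNORAD. The fibroblast markers, 9 genes of which 2 reached the level, summed to 3.93 and 6.25 RPKM in circPRE8 sgNORAD and 3.47 and 3.29 in parental sgControl, with COL3A1 1.89-fold higher (limma adjusted p = 0.0127). PAX2, a kidney marker, was 1.72-fold higher (limma adjusted p = 1.57e-05) and was also called higher in circPRE2 sgNORAD (log2 0.57). WT1 was listed at 0, and blood markers were at most 0.476 RPKM. The part of these differences in the histone results was not tested. The intestinal markers VIL1 and LGALS4 did not pass 0.0528 RPKM in any library and CEACAM5 was listed at 0.

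Of the 44 members under the level, 16 were listed at 0 in every library and 28 were above 0 in at least 1 library. Together the 44 summed to 4.45 ± 0.21 RPKM in circPRE8 sgNORAD, 3.58 ± 0.23 in circPRE2 sgNORAD, 3.57 ± 0.094 in parental sgNORAD and 3.63 ± 0.94 in parental sgControl (SD, n = 2 libraries each). The members nearest below the level were HIST1H3J, HIST2H2AB and HIST1H4B, whose second-highest libraries were at 0.498, 0.488 and 0.483 RPKM. The nearest above it were HIST1H4A, HIST1H4J and HIST1H3A, at 0.520, 0.587 and 0.691 RPKM by the same measure. By class, the level was reached by 2 of 6 H1 genes, 7 of 17 H2A, 7 of 18 H2B, 5 of 15 H3 and 6 of 15 H4 genes. By cluster, it was reached by 23 of 55 genes in HIST1 on chromosome 6, 3 of 12 in HIST2 and 1 of 3 in HIST3 on chromosome 1, and not by the single HIST4 gene on chromosome 12.

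A listed 0 can have more than 1 source. Of the 16 members at 0, 4 had nearly all of their exon bases inside another annotated gene (HIST2H3PS2, HIST1H3D, HIST1H2AD and HIST1H2AK) and 12 had none. Of the 27 members with the level, none overlapped another gene's exons, but 5 shared sequence with another histone gene. HIST1H4K shared 100% of its 150-base windows, HIST1H2AJ 76.9%, HIST1H4J 72.8%, HIST1H2AI 51.7% and HIST2H3D 12.6%, so the values of these 5 are uncertain to that extent. The near-identical pairs HIST2H3A and HIST2H3C, HIST2H2AA3 and HIST2H2AA4, and HIST2H4A and HIST2H4B all stayed under the level.

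The sum over all 71 members was 132 and 133 RPKM in circPRE8 sgNORAD, 86.2 and 85.4 in circPRE2 sgNORAD, 73.1 and 77.5 in parental sgNORAD and 75.5 and 76.2 in parental sgControl. Both circPRE8 libraries stood above all 6 others, and the libraries of the parental groups overlapped. The ratio of group means was 1.75 for circPRE8 sgNORAD against parental sgControl, 1.76 against parental sgNORAD and 1.55 against circPRE2 sgNORAD. It was 1.13 for circPRE2 sgNORAD and 0.99 for parental sgNORAD, each against parental sgControl. Since 2 libraries against 2 cannot reach 0.05 in an exact permutation test, these sums are given as values with no test.

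HIST1H2BK, HIST1H1C and HIST3H2A made up 64.6% of the summed histone level in circPRE8 sgNORAD and 56.4% in parental sgControl. Without these 3 genes the other 68 summed to 47.1 ± 1.3 RPKM in circPRE8 sgNORAD, 33.6 ± 1.0 in circPRE2 sgNORAD, 31.8 ± 4.4 in parental sgNORAD and 33.1 ± 1.7 in parental sgControl (SD, n = 2 libraries each). The circPRE8 sum therefore stood 1.42 times the parental sgControl sum without them as well.

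**Figure D1:**
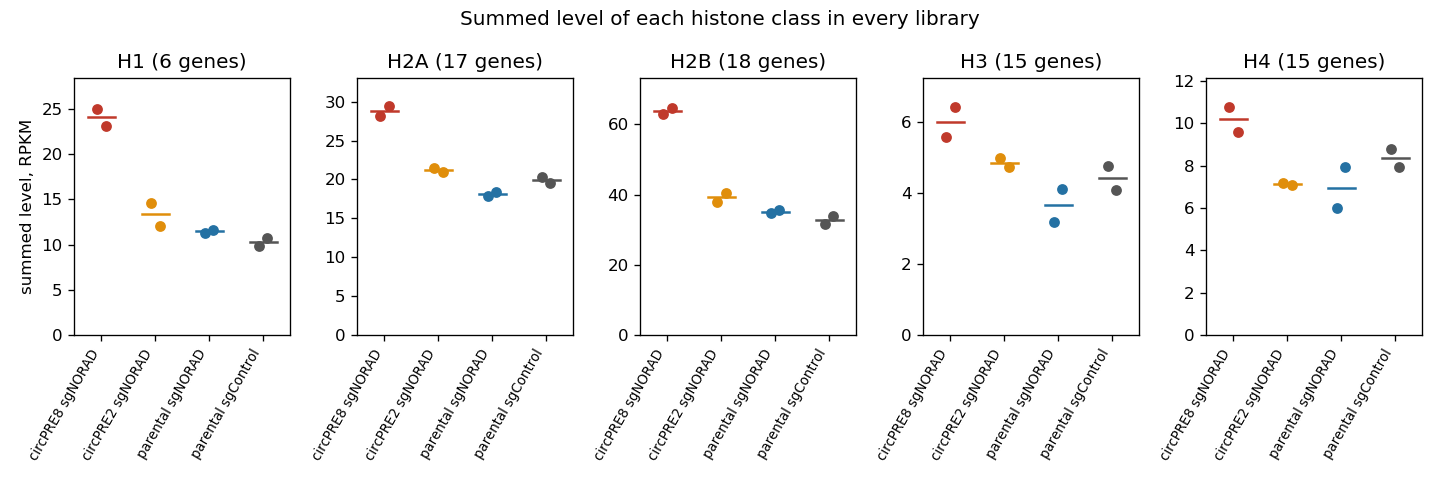
Summed RPKM of each histone class in every library: points are libraries, lines are means of 2, groups run from circPRE8 sgNORAD on the left to parental sgControl on the right, and each panel has its own axis from 0. The circPRE8 libraries are the highest in every class, at 62.8 and 64.7 RPKM for H2B and at 28.2 and 29.4 RPKM for H2A.

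All classes were highest in circPRE8 sgNORAD, by unequal ratios. H1 summed to 24.1 ± 1.4 RPKM in circPRE8 sgNORAD and 10.3 ± 0.56 in parental sgControl (SD, n = 2 libraries each), a ratio of 2.34. The ratio was 1.94 for H2B, 1.45 for H2A, 1.36 for H3 and 1.22 for H4 in the same comparison. In parental sgNORAD against parental sgControl the ratios were 1.11 for H1, 1.07 for H2B, 0.91 for H2A, 0.83 for H3 and 0.83 for H4. Without parental sgNORAD replicate 1 they were 1.13, 1.08, 0.92, 0.93 and 0.95 in the same order of classes. HIST1 rows summed to 110 ± 1.3 RPKM in circPRE8 sgNORAD and 59.8 ± 1.4 in parental sgControl, a ratio of 1.84, while HIST2 rows gave 6.06 ± 0.51 and 5.38 ± 0.32 RPKM (SD, n = 2 libraries each), a ratio of 1.13. Single HIST1 genes held most of the H1 and H2B sums. In circPRE8 sgNORAD, HIST1H1C had a mean of 22.2 of the 24.1 RPKM for H1, and HIST1H2BK 47.4 of the 63.8 RPKM for H2B. HIST1H1E, the other tested H1 gene, had a mean of 1.73 RPKM in circPRE8 sgNORAD and 2.08 in parental sgControl.

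Each gene was then tested with limma on log2(RPKM + 0.1) over all 11585 genes at the level, with Benjamini-Hochberg adjustment over all of them and a threshold of 0.05. Fold changes are on that scale, so they understate the change of low genes. In circPRE8 sgNORAD against parental sgControl, 14 of the 27 tested members were higher, where 20% of all genes were, and 0 were lower, where 20.5% of all genes were. At an unadjusted p under 0.05, 1 member was lower, and none was with voom, limma's weighting of recovered reads. Fitted on the 4 libraries of that comparison alone, 15 members were higher and 5 were lower. The cause of that difference between fits was not tested. The members' median log2 fold change was 0.39, against -0.00 over all genes tested. Of the 27, 1 (HIST1H2BM) reached the level in circPRE8 sgNORAD alone, so it had to differ.

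In circPRE8 sgNORAD against parental sgNORAD, 18 of 27 members were higher (23.6% of all genes) and 0 were lower (28.6% of all genes), and against circPRE2 sgNORAD 16 were higher (18% of all genes) and 0 were lower (25.7% of all genes). Here no member was lower at an unadjusted p under 0.05 in limma, and none was with voom. The members' medians were 0.70 and 0.49, against -0.02 and -0.04 over all genes tested. The 3 comparisons with circPRE8 sgNORAD share its libraries. Both circPRE8 libraries stood above all 6 others for 15 of the 27 members, a pattern that 16.5% of all genes tested showed. HIST1H2BM, which had to differ, is counted in the 18, the 16 and the 15.

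Outside the circPRE8 line the members went both ways. In parental sgNORAD against parental sgControl, 4 of 27 were higher (20.9% of all genes) and 8 were lower (16.4% of all genes), with a median of -0.06 against 0.02. In circPRE2 sgNORAD against parental sgControl, 8 were higher (25.2% of all genes) and 6 were lower (17.8% of all genes), with a median of 0.06 against 0.03. In circPRE2 sgNORAD against parental sgNORAD, 4 were higher (10.9% of all genes) and 3 were lower (7.91% of all genes), with a median of 0.16 against 0.01.

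These mixed counts moved when single libraries were left out. Without parental sgControl replicate 1, 3 members were higher and 1 was lower in parental sgNORAD against parental sgControl, and 5 were higher and 2 were lower in circPRE2 sgNORAD against parental sgControl. Without circPRE2 sgNORAD replicate 2, 6 were higher and 3 were lower in circPRE2 sgNORAD against parental sgControl. In circPRE2 sgNORAD against parental sgNORAD, the 7 calls became 3 or 4 without either circPRE2 library or without either circPRE8 library. Without circPRE8 sgNORAD replicate 1, 10 members in place of 16 were higher in circPRE8 sgNORAD than in circPRE2 sgNORAD. Counts in the other 2 comparisons stayed within 1.5 times under every library left out.

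**Figure D2:**
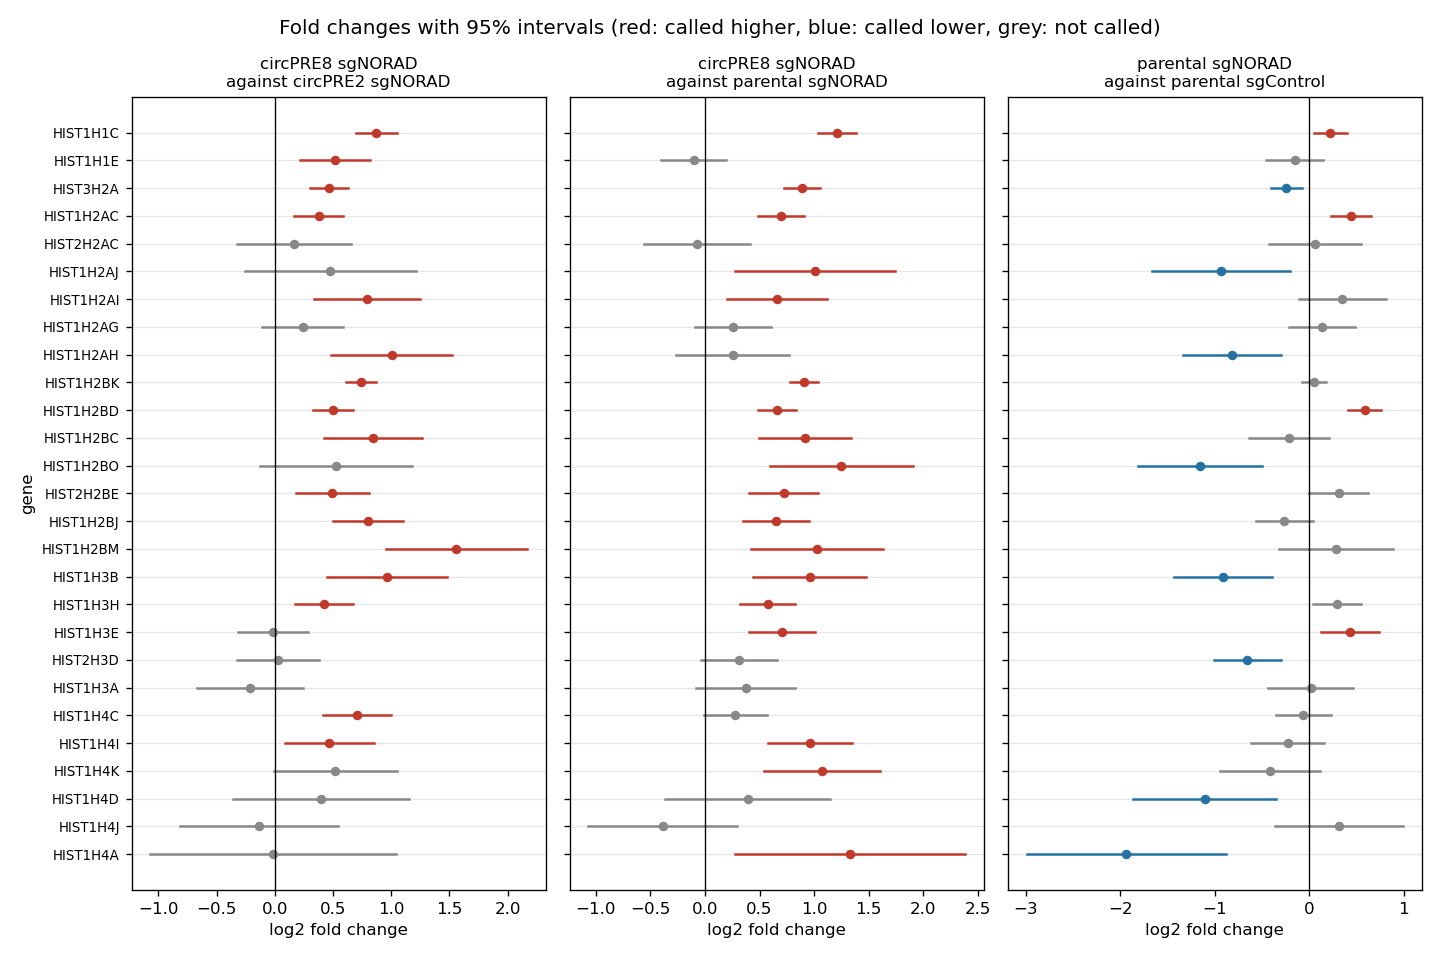
Log2 fold change with its 95% interval from limma for the 27 tested members, circPRE8 sgNORAD against circPRE2 sgNORAD on the left, against parental sgNORAD in the middle, and parental sgNORAD against parental sgControl on the right (red: called higher, blue: called lower, grey: not called). In the left and middle panels the 16 and 18 called genes all lie to the right of 0, while the right panel has 4 on the right and 8 on the left.

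The 2 tested linker histone genes differed from each other. HIST1H1C (chr6:26055787-26056428), a linker histone gene expressed through most of the body, had 23.2 and 21.3 RPKM in circPRE8 sgNORAD, 13.2 and 11.1 in circPRE2 sgNORAD, 9.60 and 9.47 in parental sgNORAD and 7.65 and 8.68 in parental sgControl. No 2 of the 4 groups overlapped, and the order ran from circPRE8 sgNORAD down to parental sgControl. It was 2.71-fold higher in circPRE8 sgNORAD than in parental sgControl (log2 1.44, SE 0.08, limma adjusted p = 2.02e-07) and 1.83-fold higher than in circPRE2 sgNORAD (limma adjusted p = 8.53e-06). In circPRE2 sgNORAD it was 1.48-fold higher than in parental sgControl (limma adjusted p = 0.000206). The step in parental sgNORAD against parental sgControl, 1.17-fold, passed at a limma adjusted p of 0.0435 and was lost in several settings, with 0.288 without parental sgControl replicate 1, 0.108 without parental sgNORAD replicate 1 and 0.218 with voom.

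HIST1H1E, another somatic H1 gene in the same cluster, did not share that order. It had 1.84 and 1.61 RPKM in circPRE8 sgNORAD, 1.38 and 1.00 in circPRE2 sgNORAD, 1.68 and 2.06 in parental sgNORAD and 2.18 and 1.98 in parental sgControl. The circPRE2 libraries were the lowest, and the gene fell by 0.77 on the log2 scale in circPRE2 sgNORAD against parental sgControl (SE 0.14, limma adjusted p = 0.00101). Its difference between circPRE8 sgNORAD and parental sgControl, log2 -0.26 (SE 0.14), did not pass. The other 4 H1 genes stayed under the level.

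Among the H2A genes, HIST3H2A (chr1:228456979-228457873), the H2A gene of the small HIST3 cluster, was the most abundant. It had 15.3 and 17.1 RPKM in circPRE8 sgNORAD, 11.6 and 11.8 in circPRE2 sgNORAD, 9.44 and 7.97 in parental sgNORAD and 10.7 and 9.91 in parental sgControl. The circPRE8 libraries were highest and the circPRE2 libraries came next, with no overlap between groups. The gene was 1.57-fold higher in circPRE8 sgNORAD than in parental sgControl (log2 0.65, SE 0.08, limma adjusted p = 5.72e-05) and 1.38-fold higher than in circPRE2 sgNORAD (limma adjusted p = 0.000534). It was also 1.34-fold higher in circPRE2 sgNORAD than in parental sgNORAD (limma adjusted p = 0.00349), the only one of the 7 calls of that comparison that was kept under every alternative.

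HIST1H2AC (chr6:26124145-26139116), an H2A gene known to make polyadenylated RNA, had 4.55 and 4.87 RPKM in circPRE8 sgNORAD, 3.56 and 3.64 in circPRE2 sgNORAD, 2.60 and 3.15 in parental sgNORAD and 1.90 and 2.26 in parental sgControl. All 3 groups with the NORAD guide were above parental sgControl without overlap. The fold against parental sgControl was 2.21 in circPRE8 sgNORAD (limma adjusted p = 5.55e-06), 1.70 in circPRE2 sgNORAD (limma adjusted p = 9.52e-05) and 1.36 in parental sgNORAD (limma adjusted p = 0.00388). These 3 calls were kept under every alternative.

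The 5 other tested H2A genes were lower in level and less even between libraries. HIST1H2AI, with 1.42 and 1.01 RPKM in circPRE8 sgNORAD, 0.817 and 0.514 in circPRE2 sgNORAD, 0.630 and 0.826 in parental sgNORAD and 0.607 and 0.487 in parental sgControl, was 2.02-fold higher in circPRE8 sgNORAD than in parental sgControl (limma adjusted p = 0.0027). HIST1H2AH, an H2A gene of the HIST1 cluster, had 0.810 and 0.629 RPKM in circPRE8 sgNORAD, 0.223 and 0.411 in circPRE2 sgNORAD, 0.546 and 0.622 in parental sgNORAD and 1.40 and 0.864 in parental sgControl. It was highest in parental sgControl and lowest in circPRE2 sgNORAD, and it fell by 1.56 on the log2 scale in circPRE2 sgNORAD against parental sgControl (SE 0.24, limma adjusted p = 0.000337), with 4 and 8 reads in circPRE2 sgNORAD and 23 and 15 in parental sgControl. HIST1H2AJ had 1.91 and 0.891 RPKM in circPRE8 sgNORAD, 0.670 and 1.23 in circPRE2 sgNORAD, 0.455 and 0.792 in parental sgNORAD and 1.03 and 1.5 in parental sgControl. Its circPRE8, circPRE2 and parental sgControl libraries overlapped, and its calls between circPRE8 sgNORAD and parental sgNORAD (limma adjusted p = 0.0252) and between parental sgNORAD and parental sgControl (0.0462) were lost without parental sgNORAD replicate 1 (0.162 and 0.24) among other settings.

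HIST1H2AG had 0.946 and 0.830 RPKM in circPRE8 sgNORAD, 0.721 and 0.751 in circPRE2 sgNORAD, 0.783 and 0.671 in parental sgNORAD and 0.532 and 0.792 in parental sgControl. HIST2H2AC, in the HIST2 cluster beside HIST2H2BE, had 2.30 and 3.17 RPKM in circPRE8 sgNORAD, 3.05 and 1.89 in circPRE2 sgNORAD, 2.26 and 3.59 in parental sgNORAD and 2.77 and 2.69 in parental sgControl. Neither passed the test in any comparison, and the HIST2H2AC groups overlapped throughout.

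**Figure D3:**
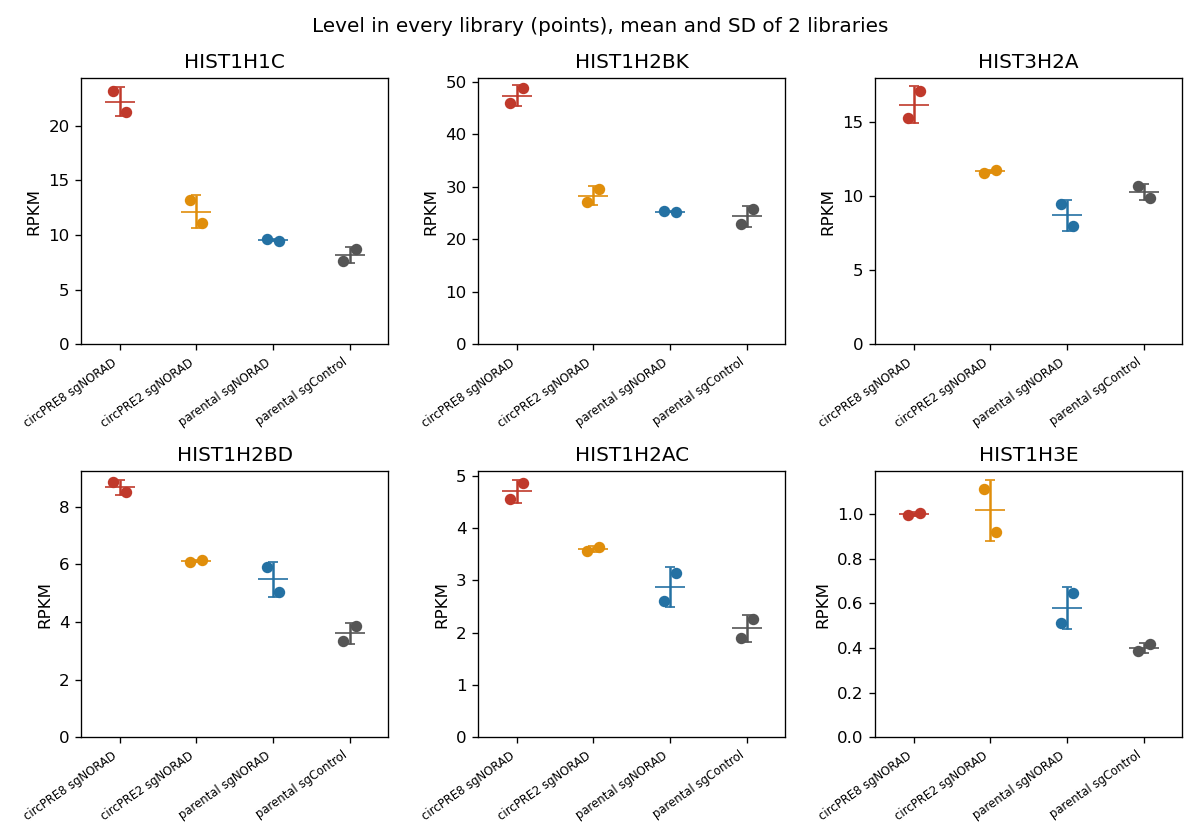
RPKM of 6 members in every library (points) with the mean and SD of 2 libraries (bars), groups from circPRE8 sgNORAD on the left to parental sgControl on the right, each panel with its own axis from 0. HIST1H1C, HIST1H2BD and HIST1H2AC step down from left to right, HIST1H2BK is set apart in circPRE8 sgNORAD at 46.0 and 48.7 RPKM, and HIST1H3E is at about the same level in both circPRE lines.

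Of the 7 tested H2B genes, 6 were higher in circPRE8 sgNORAD than in parental sgControl and all 7 were higher than in parental sgNORAD. Both counts include HIST1H2BM, which reached the level in circPRE8 sgNORAD alone and so had to differ. HIST1H2BK (chr6:27146418-27146798), the most abundant member and an H2B gene with a known polyadenylated form, had 46.0 and 48.7 RPKM in circPRE8 sgNORAD, 27.0 and 29.6 in circPRE2 sgNORAD, 25.3 and 25.2 in parental sgNORAD and 22.9 and 25.7 in parental sgControl. The circPRE8 libraries stood far above the rest, whose groups lay close together. It was 1.94-fold higher in circPRE8 sgNORAD than in parental sgControl (log2 0.96, SE 0.06, limma adjusted p = 4.1e-07), 1.87-fold higher than in parental sgNORAD (limma adjusted p = 3.37e-07) and 1.67-fold higher than in circPRE2 sgNORAD (limma adjusted p = 2.99e-06). In parental sgNORAD against parental sgControl the log2 difference was 0.05 with a 95% interval that held 0. The call in circPRE2 sgNORAD against parental sgControl, 1.16-fold (limma adjusted p = 0.0102), was lost without circPRE2 sgNORAD replicate 2 (0.0986) and without parental sgControl replicate 1 (0.103).

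HIST1H2BD (chr6:26158146-26171349), which has a spliced polyadenylated form, had 8.87 and 8.50 RPKM in circPRE8 sgNORAD, 6.08 and 6.14 in circPRE2 sgNORAD, 5.90 and 5.05 in parental sgNORAD and 3.34 and 3.86 in parental sgControl. Every group with the NORAD guide was above parental sgControl without overlap. The fold against parental sgControl was 2.38 in circPRE8 sgNORAD (limma adjusted p = 5.93e-07), 1.68 in circPRE2 sgNORAD (limma adjusted p = 2.79e-05), and the log2 difference in parental sgNORAD was 0.59 (SE 0.08, limma adjusted p = 0.000189), all 3 kept under every alternative. HIST2H2BE, the H2B gene of the HIST2 cluster, had 1.44 and 1.30 RPKM in circPRE8 sgNORAD, 0.838 and 1.06 in circPRE2 sgNORAD, 0.690 and 0.908 in parental sgNORAD and 0.600 and 0.640 in parental sgControl. It followed the same order with some overlap between circPRE2 sgNORAD and parental sgNORAD, and was 2.04-fold higher in circPRE8 sgNORAD than in parental sgControl (limma adjusted p = 0.000206).

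HIST1H2BC had 1.83 and 1.80 RPKM in circPRE8 sgNORAD, 1.09 and 0.858 in circPRE2 sgNORAD, 0.718 and 1.15 in parental sgNORAD and 1.27 and 0.909 in parental sgControl. HIST1H2BJ had 0.707 and 0.769 RPKM in circPRE8 sgNORAD, 0.364 and 0.398 in circPRE2 sgNORAD, 0.408 and 0.461 in parental sgNORAD and 0.519 and 0.563 in parental sgControl. The circPRE8 libraries were the highest for both genes, and both were higher there than in circPRE2 sgNORAD (1.79-fold with limma adjusted p = 0.00447 and 1.74-fold with limma adjusted p = 0.000829) and than in parental sgNORAD (limma adjusted p = 0.00195 and 0.00214). HIST1H2BM had 1.12 and 0.799 RPKM in circPRE8 sgNORAD, 0.170 and 0.365 in circPRE2 sgNORAD, 0.370 and 0.459 in parental sgNORAD and 0.432 and 0.234 in parental sgControl, from 19 and 15 reads in circPRE8 sgNORAD and 3 to 8 in the others. HIST1H2BO had 1.35 and 1.23 RPKM in circPRE8 sgNORAD, 1.02 and 0.731 in circPRE2 sgNORAD, 0.277 and 0.804 in parental sgNORAD and 1.29 and 1.11 in parental sgControl. Its lowest library was in parental sgNORAD, and between circPRE8 sgNORAD and parental sgControl the log2 difference was 0.09 (SE 0.30). Its fall in parental sgNORAD against parental sgControl (log2 -1.15, limma adjusted p = 0.0104) was lost without parental sgControl replicate 1 (0.0596) and with no filter on low values (0.0674).

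**Figure D4:**
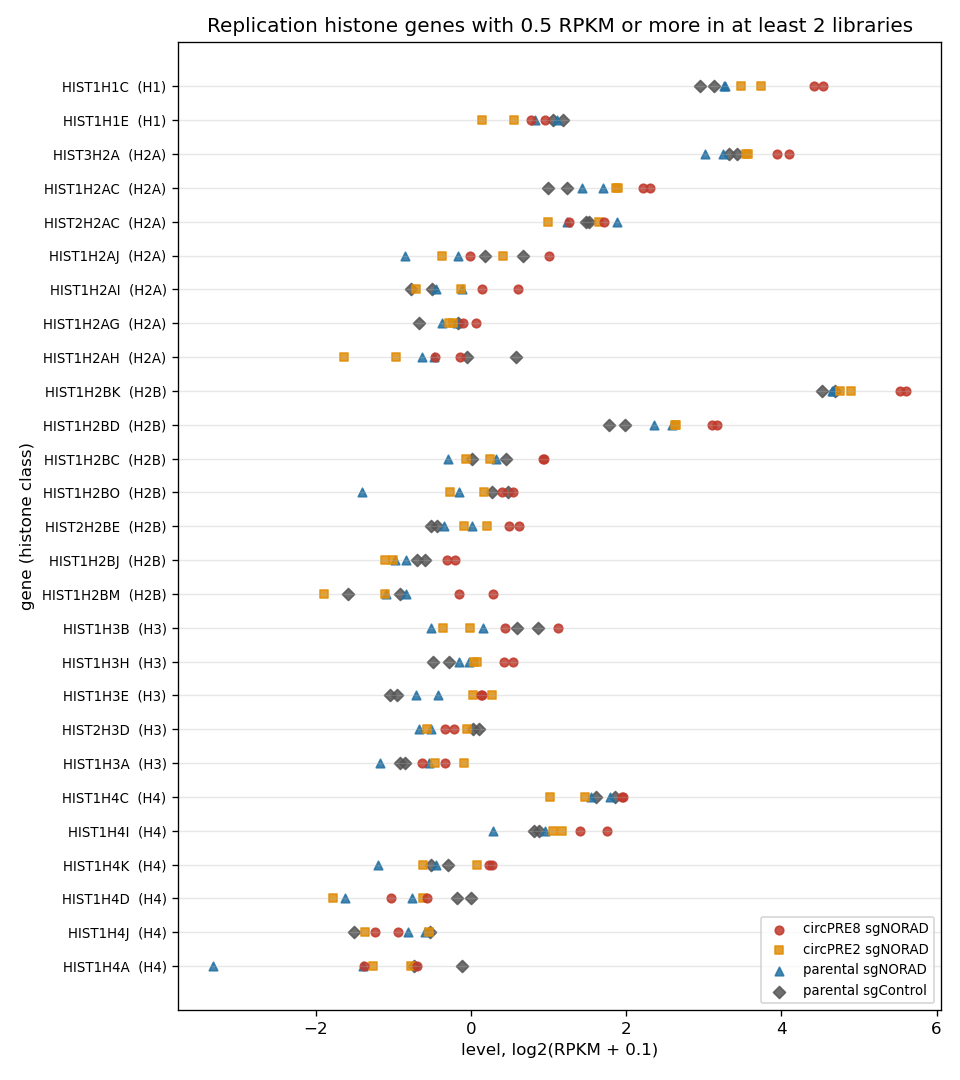
Level of the 27 members with 0.5 RPKM or more in at least 2 libraries, grouped by class, as log2(RPKM + 0.1) with 1 point per library (circles circPRE8 sgNORAD, squares circPRE2 sgNORAD, triangles parental sgNORAD, diamonds parental sgControl). Both circles lie to the right of all other points for 15 genes, among them 6 of the 7 H2B genes, while the H4 genes HIST1H4A, HIST1H4D and HIST1H4J show no such order. HIST1H2BM, counted in the 15 and the 6, reached the level in circPRE8 sgNORAD alone and so had to differ.

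Of the H3 genes, HIST1H3E and HIST1H3H, both with a poly(A) signal at an annotated end, were higher in circPRE8 sgNORAD and circPRE2 sgNORAD than in parental sgControl. HIST1H3E (chr6:26224199-26227473) had 0.995 and 1.01 RPKM in circPRE8 sgNORAD, 1.11 and 0.921 in circPRE2 sgNORAD, 0.513 and 0.645 in parental sgNORAD and 0.386 and 0.416 in parental sgControl. Both circPRE lines were above both parental groups, and they overlapped each other. The fold against parental sgControl was 2.20 in circPRE8 sgNORAD (limma adjusted p = 7.86e-05) and 2.22 in circPRE2 sgNORAD (limma adjusted p = 6.91e-05). The log2 difference between circPRE8 sgNORAD and circPRE2 sgNORAD was -0.02, with a 95% interval from -0.32 to 0.29.

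HIST1H3H had 1.36 and 1.25 RPKM in circPRE8 sgNORAD, 0.961 and 0.932 in circPRE2 sgNORAD, 0.797 and 0.884 in parental sgNORAD and 0.722 and 0.613 in parental sgControl. The groups stepped down without overlap, and the gene was 1.83-fold higher in circPRE8 sgNORAD than in parental sgControl (limma adjusted p = 0.000138). Its call in circPRE2 sgNORAD against parental sgControl (limma adjusted p = 0.00818) was lost without circPRE2 sgNORAD replicate 1 (0.0533) or parental sgControl replicate 2 (0.0753). HIST1H3B, counted over its coding part, had 1.25 and 2.07 RPKM in circPRE8 sgNORAD, 0.894 and 0.677 in circPRE2 sgNORAD, 0.600 and 1.01 in parental sgNORAD and 1.71 and 1.41 in parental sgControl. Its circPRE8 sgNORAD and parental sgControl libraries were above the others, with a log2 difference of -0.91 in both circPRE2 sgNORAD and parental sgNORAD against parental sgControl (limma adjusted p = 0.00915 and 0.0108). Those calls were each lost without parental sgControl replicate 1 (0.0629 and 0.0729), the first also without circPRE2 sgNORAD replicate 2 (0.0623) and the second also without parental sgNORAD replicate 1 (0.0795).

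HIST1H3A had 0.545 and 0.691 RPKM in circPRE8 sgNORAD, 0.842 and 0.629 in circPRE2 sgNORAD, 0.343 and 0.586 in parental sgNORAD and 0.457 and 0.434 in parental sgControl. HIST2H3D had 0.763 and 0.691 RPKM in circPRE8 sgNORAD, 0.579 and 0.871 in circPRE2 sgNORAD, 0.600 and 0.532 in parental sgNORAD and 0.972 and 0.922 in parental sgControl. Each passed in 1 comparison, HIST1H3A higher in circPRE2 sgNORAD than in parental sgControl (limma adjusted p = 0.0346, up to 0.235 with a library left out) and HIST2H3D lower in parental sgNORAD than in parental sgControl (limma adjusted p = 0.00777, but 0.135 with voom). Both rest on 4 to 18 reads per library.

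Most H4 genes encode an identical protein, but their RNA levels had no common order over the groups. HIST1H4C had 3.76 and 3.78 RPKM in circPRE8 sgNORAD, 2.68 and 1.92 in circPRE2 sgNORAD, 2.83 and 3.37 in parental sgNORAD and 3.51 and 2.97 in parental sgControl. It was lowest in circPRE2 sgNORAD, and circPRE8 sgNORAD was 1.63-fold above that (limma adjusted p = 0.0014), while the log2 difference of 0.22 between circPRE8 sgNORAD and parental sgControl did not pass. HIST1H4I had 3.29 and 2.56 RPKM in circPRE8 sgNORAD, 1.99 and 2.15 in circPRE2 sgNORAD, 1.12 and 1.84 in parental sgNORAD and 1.74 and 1.65 in parental sgControl. It was 1.95-fold higher in circPRE8 sgNORAD than in parental sgNORAD (limma adjusted p = 0.00076) and 1.67-fold higher than in parental sgControl (limma adjusted p = 0.00606, but 0.0667 without circPRE8 sgNORAD replicate 1).

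HIST1H4K had 1.08 and 1.11 RPKM in circPRE8 sgNORAD, 0.554 and 0.956 in circPRE2 sgNORAD, 0.339 and 0.631 in parental sgNORAD and 0.602 and 0.714 in parental sgControl. It was 2.10-fold higher in circPRE8 sgNORAD than in parental sgNORAD (limma adjusted p = 0.00307), although every window of its sequence also occurs in another histone gene. HIST1H4D had 0.574 and 0.390 RPKM in circPRE8 sgNORAD, 0.554 and 0.191 in circPRE2 sgNORAD, 0.226 and 0.491 in parental sgNORAD and 0.904 and 0.786 in parental sgControl, where it was highest. Its calls against parental sgControl, lower in circPRE2 sgNORAD (limma adjusted p = 0.0226) and in parental sgNORAD (limma adjusted p = 0.0261), were each lost without parental sgControl replicate 1 (0.0963 and 0.109), the first also without circPRE2 sgNORAD replicate 2 (0.207) and the second also without parental sgNORAD replicate 1 (0.173). HIST1H4A had 0.287 and 0.520 RPKM in circPRE8 sgNORAD, 0.485 and 0.319 in circPRE2 sgNORAD, 0 and 0.281 in parental sgNORAD and 0.828 and 0.50 in parental sgControl, and its calls rest on a library listed at 0 and on 11 reads at most. Its call in circPRE8 sgNORAD against parental sgNORAD (limma adjusted p = 0.0365) was lost without parental sgNORAD replicate 1 (0.37). HIST1H4J, with 0.420 and 0.326 RPKM in circPRE8 sgNORAD, 0.290 and 0.587 in circPRE2 sgNORAD, 0.567 and 0.469 in parental sgNORAD and 0.252 and 0.597 in parental sgControl, passed in no comparison.

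The calls differed in the reads behind them. Of the 27 members, 9 had fewer than 30 recovered reads in every library and 18 had 30 reads or more in at least 1. The 4 members higher in parental sgNORAD than in parental sgControl all had 30 reads or more in a library, while 5 of the 8 lower ones did not. Of the 14 members higher in circPRE8 sgNORAD than in parental sgControl, 12 had 30 reads or more in a library, and against parental sgNORAD 14 of 18 did. Against circPRE2 sgNORAD the count was 14 of 16.

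The 5 genes listed as having known polyadenylated forms (HIST1H1C, HIST1H2AC, HIST1H2BD, HIST1H2BK and HIST2H2BE) summed to 84.4 ± 0.52 RPKM in circPRE8 sgNORAD, 51.1 ± 0.60 in circPRE2 sgNORAD, 43.9 ± 0.27 in parental sgNORAD and 38.8 ± 3.4 in parental sgControl. The other 66 summed to 48.5 ± 0.065, 34.6 ± 1.2, 31.4 ± 3.4 and 37.1 ± 2.9 RPKM in the same 4 groups (SD, n = 2 libraries each). The 5 genes were the larger share of the histone signal in circPRE8 sgNORAD, 63.5%, against 51.2% in parental sgControl. In limma, 5 of the 5 were higher in circPRE8 sgNORAD, 5 in circPRE2 sgNORAD and 3 in parental sgNORAD, each against parental sgControl, with median log2 fold changes of 1.15, 0.56 and 0.31. Over all genes the shares called higher were 20%, 25.2% and 20.9% in these comparisons, and the shares called lower were 20.5%, 17.8% and 16.4%. The count in circPRE2 sgNORAD was 3 without circPRE2 sgNORAD replicate 2 or without parental sgControl replicate 1, and that in parental sgNORAD was 2 without parental sgControl replicate 1, circPRE8 sgNORAD replicate 1 or 2, or parental sgNORAD replicate 2. Of the 22 other tested members, 9 were higher and 0 lower in circPRE8 sgNORAD (1 lower at an unadjusted p under 0.05, 0 with voom), 3 higher and 6 lower in circPRE2 sgNORAD, and 1 higher and 8 lower in parental sgNORAD. Their medians were 0.30, -0.21 and -0.22. Without parental sgControl replicate 1, these counts were 7 and 0 in circPRE8 sgNORAD, 2 and 2 in circPRE2 sgNORAD and 1 and 1 in parental sgNORAD. Without parental sgNORAD replicate 1, 4 in place of 8 were lower in parental sgNORAD, and without circPRE2 sgNORAD replicate 2, 3 in place of 6 were lower in circPRE2 sgNORAD. Without circPRE8 sgNORAD replicate 1, 5 in place of 9 were higher in circPRE8 sgNORAD, and without either circPRE2 library 2 were lower there. These 3 comparisons share the parental sgControl libraries, and the difference between the 5 genes and the 22 was not tested. The list of 5 was chosen with earlier results of these data known. The 22 are not all without a tail signal. HIST3H2A, HIST1H2BC, HIST1H3E, HIST1H2BJ, HIST1H2AG and HIST1H3H among them have a poly(A) signal at an annotated end. The 22 also hold HIST1H2BM, which had to differ. Each of the 5 genes had over 100 reads in a library. The 9 members with fewer than 30 reads in every library are all among the 22, and the part of depth in this contrast was not tested.

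**Figure D5:**
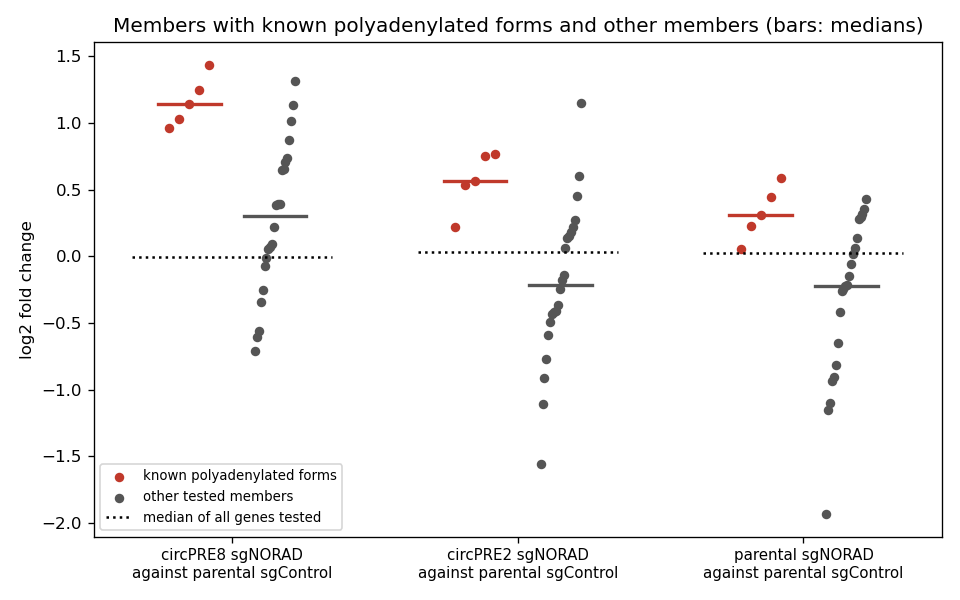
Log2 fold change against parental sgControl of the 5 members with known polyadenylated forms (red) and the 22 other tested members (grey) in circPRE8 sgNORAD, circPRE2 sgNORAD and parental sgNORAD, with medians as bars and the median of all genes tested as a dotted line. The red points lie above 0 in all 3 comparisons, with medians of 1.15, 0.56 and 0.31, while the grey points spread to both sides. All 9 members with fewer than 30 reads in every library are among the grey points. Some grey points are genes with a poly(A) signal at an annotated end. The list of 5 was chosen with earlier results of these data known.

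By annotated end, 8 of the 9 tested genes with a poly(A) signal were higher in circPRE8 sgNORAD than in parental sgControl (median log2 0.87). Of the 13 tested genes annotated as their coding part, 4 were higher (HIST1H2BM, which had to differ, among them), with a median of 0.07. Over all genes 20% were higher in this comparison. In parental sgNORAD against parental sgControl, 3 of the 9 genes with a signal were higher and 1 was lower, and 1 of the 13 with the coding part was higher and 7 were lower, where 20.9% of all genes were higher and 16.4% lower. The 7 lower calls became 1 without parental sgControl replicate 1 and 3 without parental sgNORAD replicate 1. Of these 13 genes, 8 had fewer than 30 reads in every library, against 0 of the 9 with a signal, and the part of depth in this contrast was not tested.

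Most members lie in 1 stretch of chromosome 6 (chr6:25726132-27893843, hg38), which also holds 20 other genes of the table. Of the 12 of these that were tested, 4 were higher (BTN2A1, BTN3A3, HFE and TRIM38) and 1 was lower (BTN3A2) in circPRE8 sgNORAD than in parental sgControl, with a median log2 of 0.06, where 20% of all genes were higher and 20.5% lower. Against parental sgNORAD, 3 were higher (BTN2A1, HFE and TRIM38) and 3 were lower (ABT1, BTN3A1 and BTN3A2), near the 23.6% and 28.6% of all genes. Against circPRE2 sgNORAD, 1 was higher (HFE) and 3 were lower (BTN2A2, BTN3A1 and BTN3A2), beside 18% and 25.7% of all genes. In circPRE2 sgNORAD against parental sgControl 6 of the 12 were higher and 0 lower, with a median log2 of 0.13, beside 25.2% and 17.8%. In parental sgNORAD against parental sgControl 3 were higher and 0 lower, with a median of 0.055, beside 20.9% and 16.4%. Whether position in that stretch plays a part in the members' levels was not tested.

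The 12 variant histone genes, whose symbols fall outside the rule for the members, were compared as a list. Which of their messages end in a poly(A) tail was not examined. In parental sgNORAD against parental sgControl 1 was higher and 9 were lower, and in circPRE2 sgNORAD 2 were higher and 9 lower, where 20.9% and 16.4% of all genes were higher and lower in the first comparison and 25.2% and 17.8% in the second. Compared with parental sgControl, circPRE8 sgNORAD had 3 higher and 1 lower (2 in all without either circPRE8 library or without parental sgControl replicate 1, and 20% and 20.5% over all genes), and against parental sgNORAD 7 were higher and 1 lower. In the comparison with parental sgNORAD, 23.6% of all genes were higher and 28.6% lower. Against circPRE2 sgNORAD, 6 were higher in circPRE8 sgNORAD and 1 lower, beside 18% and 25.7% of all genes. H2AFX, the variant phosphorylated at DNA breaks, had a mean of 222 ± 7.5 RPKM in circPRE8 sgNORAD, 162 ± 7.9 in circPRE2 sgNORAD, 158 ± 6.3 in parental sgNORAD and 210 ± 5.7 in parental sgControl (SD, n = 2 libraries each). H2AFZ, the promoter-associated H2A variant, was lower than parental sgControl in all 3 groups, with log2 differences of -0.37, -0.43 and -0.31 in circPRE8, circPRE2 and parental sgNORAD (limma adjusted p = 1.4e-05, 4.5e-06 and 6.2e-05). H3F3B, which encodes replacement H3, and H2AFY2 passed in all 3 comparisons as well, higher in circPRE8 sgNORAD and lower in the other groups. H1F0, the linker histone of resting and differentiated cells, had a mean of 254 ± 5.4 RPKM in circPRE8 sgNORAD, 309 ± 10.1 in circPRE2 sgNORAD, 305 ± 4.5 in parental sgNORAD and 235 ± 10.2 in parental sgControl. It fell by 0.27 on the log2 scale in circPRE8 sgNORAD against parental sgNORAD (limma adjusted p = 0.000273), where HIST1H1C was higher.

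Genes that act on histone RNA were counted in the same way. Of 32 tested histone mRNA factors, 4 were higher and 8 lower in circPRE8 sgNORAD than in parental sgControl, beside 20% and 20.5% of all genes, and 7 were higher and 6 lower in parental sgNORAD, beside 20.9% and 16.4%. In circPRE2 sgNORAD 3 were higher and 9 lower than in parental sgControl, beside 25.2% and 17.8%. The shares in parental sgNORAD lie near those of all genes. In both circPRE lines the share called higher was under that of all genes and the share called lower was above it. The 12 calls in circPRE8 sgNORAD became 4 to 6 without either circPRE8 or either parental sgControl library, and the 13 in parental sgNORAD became 8 or 6 without parental sgControl replicate 1 or 2. SLBP had a mean of 78.9 ± 0.88 RPKM in circPRE8 sgNORAD, 65.2 ± 1.4 in circPRE2 sgNORAD, 75.5 ± 3.3 in parental sgNORAD and 82.0 ± 1.2 in parental sgControl (SD, n = 2 libraries each). It was lowest in circPRE2 sgNORAD, where it fell by 0.33 on the log2 scale against parental sgControl (limma adjusted p = 5.4e-05), and its difference between circPRE8 sgNORAD and parental sgControl did not pass. SMG1, a kinase of nonsense-mediated decay that also takes part in histone mRNA decay, had a mean of 5.32 ± 0.014 RPKM in circPRE8 sgNORAD. Its means were 9.16 ± 0.86 in circPRE2 sgNORAD, 10.7 ± 2.1 in parental sgNORAD and 7.86 ± 0.79 in parental sgControl (SD, n = 2 libraries each). The log2 differences of circPRE8 sgNORAD were -0.98, -0.77 and -0.55 against parental sgNORAD, circPRE2 sgNORAD and parental sgControl (limma adjusted p = 2.3e-05, 0.00024 and 0.0022). ERI1, the exonuclease that trims the histone stem-loop end, and MIF4GD, a partner of SLBP in translation, were the 2 factors higher than parental sgControl in all 3 groups. Of the 32 factors, 10 were higher in circPRE8 sgNORAD than in circPRE2 sgNORAD and 8 lower, beside 18% and 25.7% of all genes. Compared with parental sgNORAD, 5 were higher in circPRE8 sgNORAD and 10 lower, beside 23.6% and 28.6%.

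S-phase genes, which support DNA copying, were counted as a further list. It shares SLBP, CCNE2 and CASP8AP2 with the listed histone mRNA factors, and MCM2, NASP and CHAF1B with the listed histone chaperones. The counts of these lists are therefore not independent. Of 40 tested, 24 were lower in circPRE8 sgNORAD than in parental sgControl, 36 in circPRE2 sgNORAD and 25 in parental sgNORAD. Over all genes 20.5%, 17.8% and 16.4% were lower. In each of these comparisons 0 of the 40 were higher, where 20%, 25.2% and 20.9% of all genes were. Without circPRE8 sgNORAD replicate 2, 11 in place of 24 were lower in circPRE8 sgNORAD. At an unadjusted p under 0.05 in limma, 1 was higher in the first of these comparisons and 0 in each of the others, and 0 with voom in all 3, where 14 could be tested. Against parental sgNORAD, circPRE8 sgNORAD had 11 higher and 7 lower, with a median log2 of 0.05, beside 23.6% and 28.6% of all genes, and 3 higher and 7 lower without circPRE8 sgNORAD replicate 1. Against circPRE2 sgNORAD, 18 of the 40 were higher in circPRE8 sgNORAD and 3 lower, beside 18% and 25.7% of all genes. The median log2 there was 0.12, against -0.04 over all genes tested. Genes lower than parental sgControl in all 3 groups included CLSPN, DTL, EXO1, RRM2, GMNN, RFC2, ATAD2, E2F8, PRIM1, UNG, BLM, CDC6, BRIP1, CDC45 and POLA1. POLA1, the catalytic subunit of DNA polymerase alpha, had log2 differences of -0.38, -0.41 and -0.28 in circPRE8, circPRE2 and parental sgNORAD against parental sgControl (limma adjusted p = 7.5e-05, 4.4e-05 and 0.00067). Whether S-phase content and the histone members' levels are linked in these libraries was not tested.

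Of 29 tested histone chaperone genes, 2 were higher and 6 lower in circPRE8 sgNORAD than in parental sgControl, 2 and 16 in circPRE2 sgNORAD, and 2 and 9 in parental sgNORAD. Over all genes the higher shares were 20%, 25.2% and 20.9%, and the lower shares were 20.5%, 17.8% and 16.4%. Of the lower counts, the first lies near the share of all genes. The 8 calls in circPRE8 sgNORAD became 4 without circPRE8 sgNORAD replicate 2, and the 11 in parental sgNORAD became 3 without parental sgControl replicate 2 and 7 without parental sgNORAD replicate 2. ASF1B, which hands H3 and H4 to chromatin assembly, had a mean of 64.3 ± 1.9 RPKM in circPRE8 sgNORAD, 53.0 ± 1.9 in circPRE2 sgNORAD, 49.4 ± 0.44 in parental sgNORAD and 66.6 ± 2.1 in parental sgControl (SD, n = 2 libraries each). HJURP, the chaperone of the centromeric H3 variant, was also higher in circPRE8 sgNORAD than in the other sgNORAD groups, with log2 differences of 0.35 and 0.37 in circPRE8 sgNORAD against parental sgNORAD and circPRE2 sgNORAD (limma adjusted p = 2.2e-05 and 3e-05). Of the 29 chaperone genes, 11 were higher in circPRE8 sgNORAD than in circPRE2 sgNORAD and 4 lower, beside 18% and 25.7% of all genes. Compared with parental sgNORAD, 6 were higher in circPRE8 sgNORAD and 10 lower, beside 23.6% and 28.6%. No chaperone gene passed in all 3 comparisons with parental sgControl.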

How the data were processed

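Poly(A) RNA of 8 HCT116 libraries (4 groups of 2) was measured as paired 150-base reads, and samples were grouped by their labels. RPKM per gene, in 1 table, is what the authors deposited, and the submitters' processing notes name STAR, featureCounts 1.6.0, edgeR 3.24.0 and hg38. Annotation release, strand use and filters: not given in the sources used here. Reads were recovered from RPKM steps with GENCODE release 29 merged exon lengths (within 0.1 read, whole for 70 of the 71 members, not for HIST2H2AB). All columns were used (0 left unused).

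Values were tested as log2(RPKM + 0.1) with limma 3.58.1 (R 4.3.3, trend, 4 residual degrees of freedom, 11.57 after moderation), 1 coefficient per group over all 8 libraries, for 11585 genes with 0.5 RPKM or more in at least 2 libraries, with Benjamini-Hochberg adjustment at 0.05; the script was tested on simulated data. Members and lists were chosen with earlier results of these data known. All members with the level are named; of other lists, up to 5 with the smallest adjusted p in a comparison and any that passed in every comparison with parental sgControl (1 of these is not reported here). Standard errors and intervals rest on the moderated spread between the libraries of a group. Recovered reads can include PCR copies, which are not independent molecules. Figures were drawn with matplotlib 3.10.9.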

Additional observations from a re-analysis of the deposited data

How the results depend on the processing

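Of 81 calls of a member in a comparison, 40 were kept under every alternative in which the gene was tested. With voom 57 were kept, and none changed sign in any setting. With a stricter filter of 1 RPKM or more in at least 2 libraries, only 64 of the 81 could be tested, and none of these was lost. Calls of genes left out by that filter count as kept in these numbers. In circPRE8 sgNORAD, 10 of 14 calls against parental sgControl, 13 of 18 against parental sgNORAD and 8 of 16 against circPRE2 sgNORAD were kept under every alternative; in parental sgNORAD against parental sgControl it was 2 of 12 (HIST1H2AC and HIST1H2BD). Members called numbered 12 in parental sgNORAD against parental sgControl, but 3 with no filter on low values and 4 with voom (added after seeing the data), and 4 to 12 with a library left out. In circPRE2 sgNORAD against parental sgControl they numbered 14, 9 with voom, and 7 to 16 with a library left out. In circPRE2 sgNORAD against parental sgNORAD they numbered 7, but 2 with no filter, 2 with voom, and 3 to 10 with a library left out. Against circPRE8 sgNORAD the ranges with a library left out were 10 to 15 for parental sgControl, 15 to 20 for parental sgNORAD and 10 to 18 for circPRE2 sgNORAD. Fitted on the 4 libraries compared alone, 15 were higher and 5 lower in circPRE8 sgNORAD against parental sgControl, where the fit over all 8 gave 14 and 0. The cause of these changes was not tested. The log2 ratio of the summed histone level was 0.18 (0.15 with RLE size factors) in circPRE2 sgNORAD against parental sgControl, and in circPRE8 sgNORAD 0.63 against circPRE2 sgNORAD (0.67 with RLE, 0.64 over members with the level) and 0.81 against parental sgControl (0.83 over members with the level).

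Replicate numbers did not pair the samples: deviations of same-numbered libraries correlated between -0.17 and 0.21. With the replicate block the calls were 3 higher and 7 lower, 8 and 6, and 14 and 0 in parental sgNORAD, circPRE2 sgNORAD and circPRE8 sgNORAD against parental sgControl, and 5 and 2, and 18 and 0, in circPRE2 sgNORAD and circPRE8 sgNORAD against parental sgNORAD. Against circPRE2 sgNORAD, circPRE8 sgNORAD had 16 and 0, of which 15 genes were shared with the fit without the block (HIST1H4I lost, HIST1H4K gained). Depth limits the low members, since 9 of 27 had fewer than 30 reads in every library. Of 408 list counts under alternatives, 347 were within 1.5 times. With voom, which could test fewer list genes, calls against parental sgControl in circPRE8, circPRE2 and parental sgNORAD were 1, 5 and 4 for variant histones, 5, 8 and 6 for chaperones and 8, 13 and 9 for S-phase genes.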
